A study of Mus musculus with 24 samples.

Results

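The genes described here encode nuclear subunits of the mitochondrial respiratory chain and of ATP synthase. They are 36 of the 25239 genes in the deposited table of normalised counts, found there by symbol. Of these, 19 encode subunits of complex I, 4 complex II, 6 complex III and 6 complex IV, and 1, Atp5b, encodes a subunit of complex V. Ndufa4, named for complex I, is grouped with complex IV, to which its protein is now assigned. The source is mouse tracheal epithelial cells, taken as primary cells from FVB/NJ mice (wild-type, 7 to 8 weeks old). At an air-liquid interface, 10 to 14 days of differentiation turned them into a pseudostratified epithelium, which in the airway holds basal, secretory and ciliated cells. The inserts were then kept for 10 days in humidified air or exposed to cigarette smoke, 1 exposure being 2 cigarettes burned over about 8 minutes. Each sex has 6 inserts in air and 6 in smoke. No donors are named, so inserts of 1 sex may be repeats of a single cell preparation, p-values measure only the spread between inserts, and sex cannot be told apart from preparation.

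The respiratory chain sits in the inner mitochondrial membrane. Complex I (NADH dehydrogenase) and complex II (succinate dehydrogenase, also an enzyme of the citrate cycle) pass electrons to ubiquinone. Complex III passes them on to cytochrome c, and complex IV (cytochrome c oxidase) hands them to oxygen. Complexes I, III and IV pump protons, and complex V (ATP synthase) uses the returning protons to make ATP. Most subunits are encoded in the nucleus and a few in mitochondrial DNA, and the latter are not analysed here. In the airway, ATP powers ciliary beating and ion transport. Nuclear subunit genes are known targets of the transcription factors NRF1, GABPA (an ETS factor) and ESRRA, which act with coactivators of the PGC-1 family.

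Start regions of 26 of the 36 genes could be matched by symbol to RefSeq windows on GRCm38.p6 that run from 250 bases before to 50 bases after the start. Shown are the 4 places where a motif of those 3 factors was found, since the factors' own genes are followed below. Capitals mark the motif, each run reads 5′ to 3′ on the gene's strand, and the motif may lie on either strand.
Ndufa8, NRF1, chr2:36049329-36049357 (minus strand): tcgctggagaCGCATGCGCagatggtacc
Uqcrc1, NRF1, chr9:108936668-108936696 (plus strand): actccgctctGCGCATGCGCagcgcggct
Ndufs3, ETS, chr2:90904704-90904731 (minus strand): gcacatttccACTTCCGGtccgtgccct
Sdhd, ESRRA, chr9:50603800-50603823 (minus strand): ggttgtagagTGACCTTgagccct
The Ndufa8 match ends at the base before the start, and the other three lie at or after the start.
The NRF1 letters GCGCATGCG, sought on both strands, occurred in 2 of the 26 windows (7.69%), against 3.94% of the windows of all tested genes. The ETS letters CCGGAAGT occurred in 1 (3.85%, against 8.81%) and the ESRRA letters AAGGTCA in 1 (3.85%, against 3.88%). No member window held more than 1 of the 3 motifs. A match describes letters and is not evidence of a bound site. Members without a window in this table are Cox4i1, Cox6c, Cyc1, Ndufa2, Ndufb9, Ndufs1, Sdhc, Uqcrb, Uqcrc2 and Uqcrq.

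The genes were abundant and their transcripts short. All 36 passed the filter of a mean normalised count of at least 10, as did 13549 genes in all. Their longest annotated transcripts ran from 497 to 2927 bases with a median of 1013, against 2974 over all tested genes, and 36 of 36 were shorter than that median. Per kilobase of transcript, 36 of 36 lay above the median tested gene (185 normalised counts per kilobase). In the 22 libraries that remain once the 2 libraries described next are set aside, Ndufa4 had the highest level, 17496 normalised counts per kilobase, followed by Atp5b, the catalytic beta subunit of ATP synthase, at 10929. Cox4i1, a nuclear subunit of complex IV, stood at 6771. The lowest were Ndufs4, an accessory subunit of complex I, at 501 and Ndufs1, its largest subunit, at 525.

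Length matters because gene levels in 2 female libraries followed it. In female air insert 1, 35 of the 36 genes lay above the median of the other 5 inserts, by a median of 2.18 on the log2 scale (-0.34 to 3.61). In female smoke insert 4, 36 of 36 did, by a median of 0.99 (0.13 to 1.28). Among the members this excess fell with transcript length, with a Spearman correlation of -0.63 in the first library and -0.45 in the second (36 genes of 1 library each, a description). Over all tested genes the values were -0.66 and -0.42, against -0.14 to 0.33 in the other 22 libraries. The highest of those were female air inserts 4, 5 and 6, at 0.24, 0.28 and 0.33, with inserts 2 and 3 at -0.12 and -0.07. The 22 libraries are thus not all free of a length trend, and its part in the female results was not tested. Ndufa2, with a transcript of 602 bases, lay highest in female air insert 1, at 10944 normalised counts against 823 to 1024 in inserts 2 to 6. Ndufs1, with the longest transcript of the set at 2927 bases, differed least from zero there, at 1537 against 1257 to 1512. Uqcrc2, a core subunit of complex III with 1882 bases, was the exception, at 2579 against 3240 to 3916. Members of like length also differed. In female air insert 1, Uqcrq with 1525 bases lay 3.02 above on the log2 scale and Cyc1 with 1519 bases 0.57. The median of all tested genes near 1573 bases was 0.87. Counts of members are therefore given with all 24 libraries and with the 22 that remain without both, and values of single genes in the female comparisons are from the 22 unless all libraries are named.

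**Figure D1:**
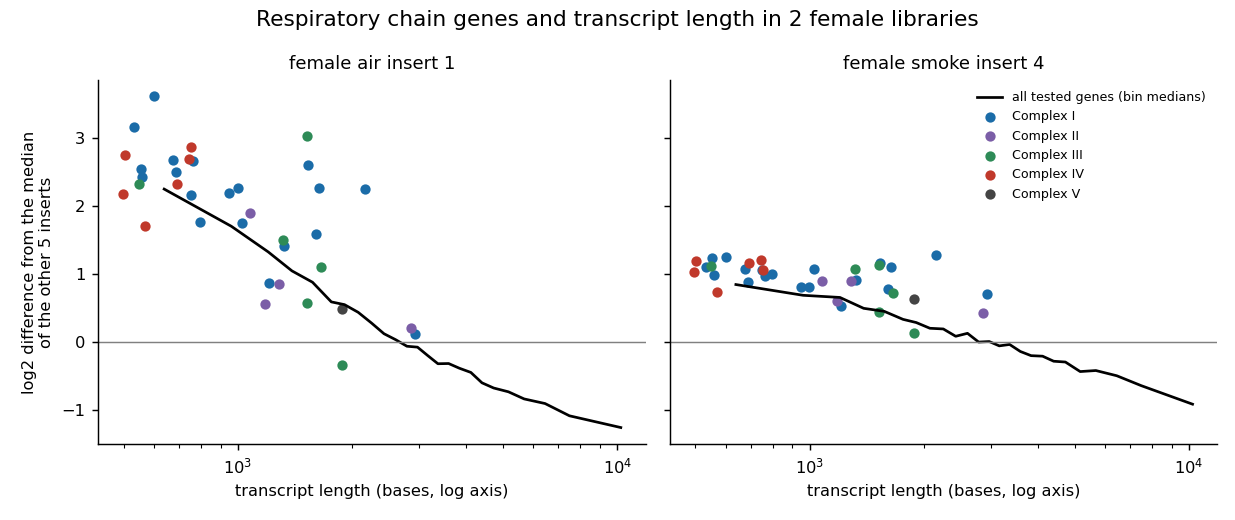
Difference of each respiratory chain gene in female air insert 1 (left) and female smoke insert 4 (right) from the median of the other 5 inserts of its group, log2 scale, against transcript length in bases on a log axis. Points are genes coloured by complex and the line joins medians of all tested genes in 25 length bins; most points lie on or above a line that falls with length.

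Levels by complex show the same pattern. The mean log2 level of the complex I genes was 9.82 to 10.10 in female air inserts 2 to 6 and 12.09 in insert 1, and 9.98 to 10.16 in female smoke apart from insert 4 at 11.07. In male air it was 10.15 to 10.25 and in male smoke 10.03 to 10.16. Complex II stood at 10.97 to 11.25 in female air inserts 2 to 6, 11.10 to 11.31 in the other 5 female smoke inserts, 11.28 to 11.38 in male air and 11.11 to 11.32 in male smoke. Complex III ran from 10.89 to 11.14, 11.18 to 11.34, 11.16 to 11.22 and 11.16 to 11.34 in the same order. For complex IV the ranges were 11.03 to 11.29, 11.35 to 11.46, 11.25 to 11.36 and 11.18 to 11.32. Over the 22 libraries, female air had the lowest group mean of the 4 groups in each of the 5 complexes, and for complexes III, IV and V the female air and female smoke ranges did not overlap. Levels of different complexes are not comparable with each other on this scale, which is not per length.

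**Figure D2:**
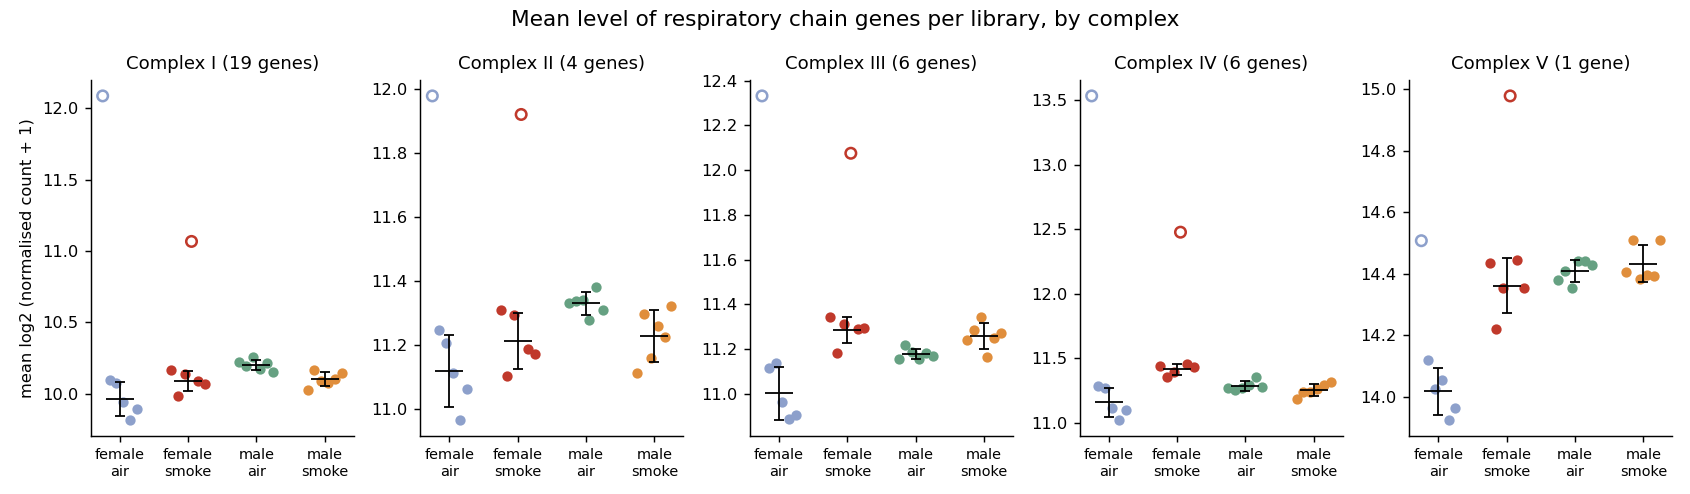
Mean log2 (normalised count + 1) of the genes of each complex in each library, by group, with inserts 1 to 6 from left to right. Open circles are female air insert 1 and female smoke insert 4, and bars show the mean and SD of the other libraries; the open circles are the highest library of their group in all 5 panels.

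In female cells, the comparison of smoke with air asks how 10 days of smoke moved these genes. Without the 2 libraries, 20 of 36 genes rose and 2 fell, and the median log2 fold change was 0.17 (-0.22 to 0.66), against -0.0041 over all tested genes. By complex, 8 of 19 genes of complex I rose and 1 fell, 2 of 4 of complex II rose and 1 fell, 5 of 6 of complex III and 4 of 6 of complex IV rose, and Atp5b rose. With all 24 libraries, 2 rose, Atp5b and Ndufs1, and the median was 0.02. None fell in that limma fit, nor in edgeR or DESeq2 on whole reads, and 1 was lower at an unadjusted p under 0.05. In that fit the call rule took 15.5% of all tested genes as higher and 19.3% as lower, and in the 22-library fit 21.9% and 23.8%. The 2 of 36 called with all libraries is thus below the background, and the 20 of 36 without the 2 libraries is above it. With all libraries the air and smoke values overlapped for 36 of 36 genes, where 6.73% of all tested genes were higher and 5.75% lower without overlap. In the 22 libraries 7 members were higher and 1 lower without overlap, against 15.3% and 12.9% of all tested genes, so the share that rose without overlap is near the background.

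The fits differed in fold change as well as in error. The median fold change of complex I was -0.10 with all libraries and 0.15 without these libraries, and that of complex IV 0.08 and 0.30. Leaving out female air insert 1 alone gave 19 genes higher and 0 lower (limma), and leaving out female smoke insert 4 alone gave 1 higher and 1 lower. Of all 13549 tested genes, the first of these fits called 2925 higher and 3318 lower, and the second 2054 and 2423. A fit of all libraries to values corrected for the length trend of each library called 12 members higher and 2 lower, where it called 20.8% and 22.3% of all tested genes. The sets of inserts differed as well. Inserts 1 to 3 without female air insert 1 gave 3 members higher and 1 lower with a median of 0.07, where 5.54% and 4.86% of all genes were called. Inserts 4 to 6 without female smoke insert 4 gave 24 higher and 1 lower with a median of 0.24, against 26.4% and 26.2%. Values given below for either set of inserts also leave those libraries out. Female air inserts 4 to 6 held the lower complex levels of that group, for example 9.82 to 9.94 for complex I against 10.08 to 10.10 in inserts 2 and 3. Over all tested genes, deviations in female air inserts 4 to 6 correlated with transcript length at 0.24 to 0.33, against -0.12 and -0.07 in inserts 2 and 3. Nothing in the labels says what separates the inserts by number, and whether this touches the responses was not tested.

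**Figure D3:**
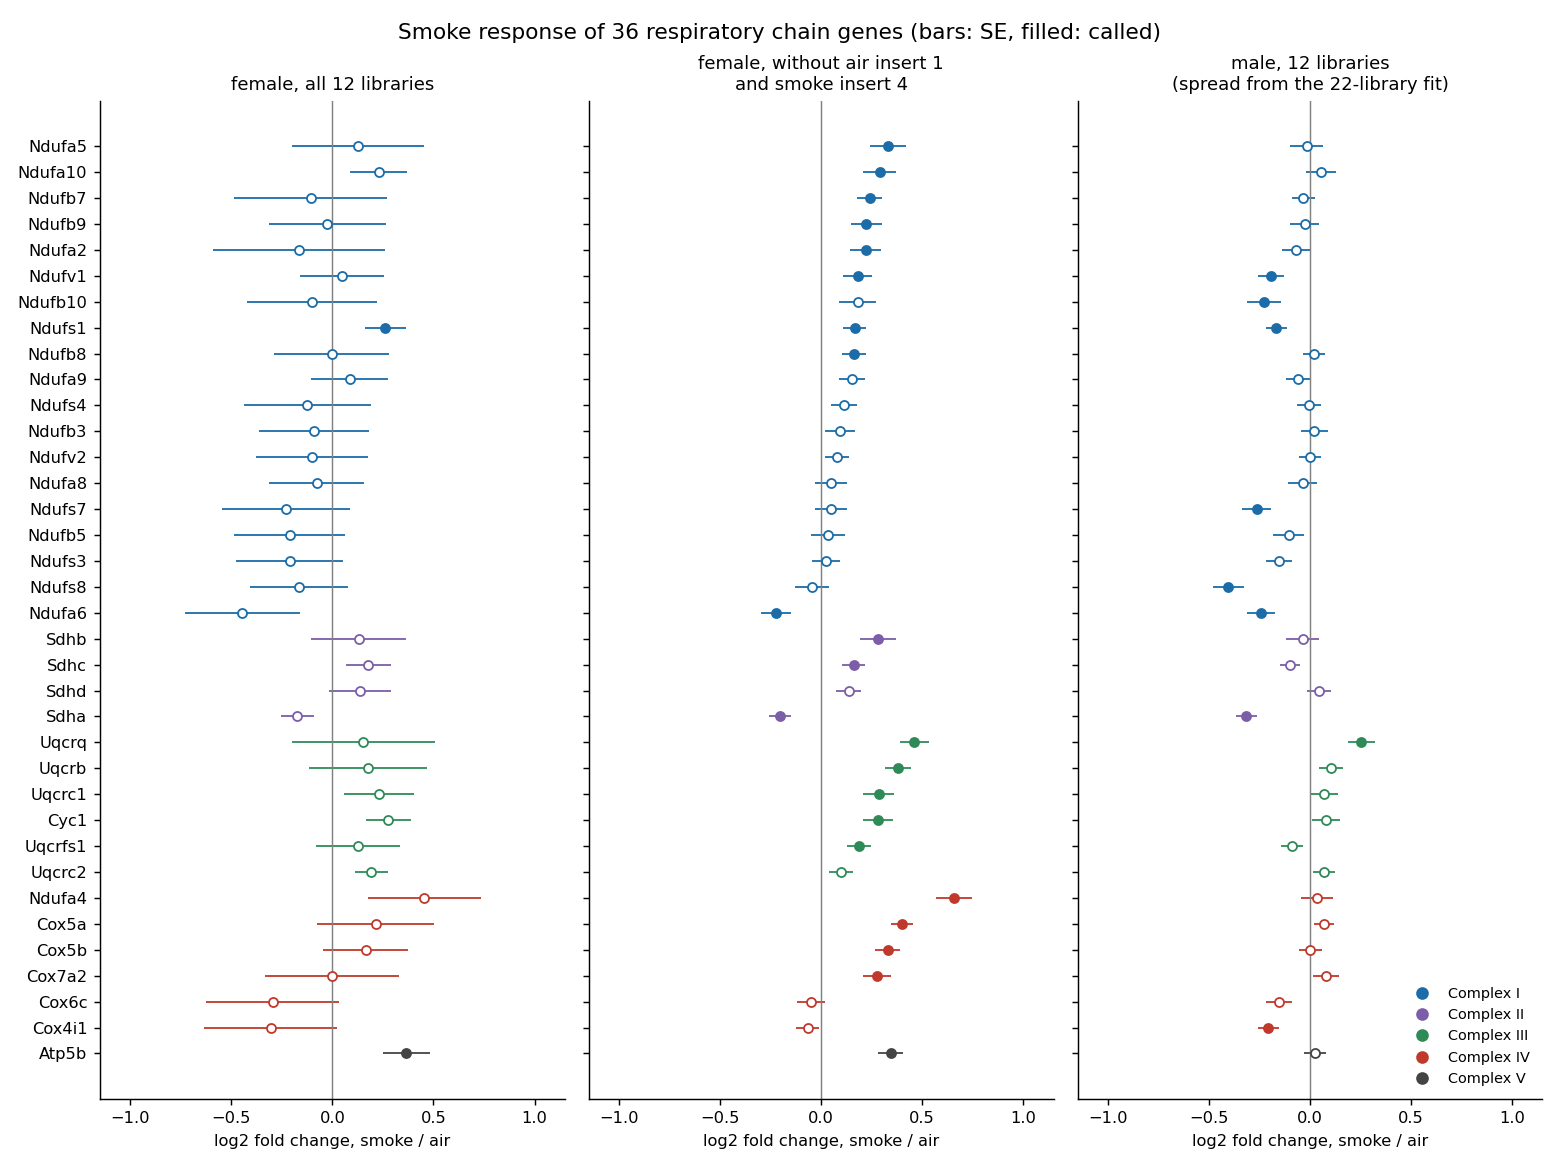
Log2 fold change of smoke over air for each of the 36 genes, coloured by complex, with SE bars; filled points were called at an adjusted p under 0.05. The left panel uses all 12 female libraries (2 called), the middle panel leaves out female air insert 1 and female smoke insert 4 (22 called), and the right panel shows male cells (9 called in the 22-library fit).

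Ndufa4 (mm10 chr6:11900372-11907450, minus strand) had the largest rise. In female air inserts 2 to 6 it stood at 8840, 8801, 9046, 7989 and 8712 normalised counts, and in female smoke inserts 1, 2, 3, 5 and 6 at 13192, 13273, 13591, 13162 and 15307. All 5 smoke values lay above all 5 air values, and female air insert 1 and female smoke insert 4 held 39744 and 26929. The log2 fold change was 0.66 ± 0.09 (SE, n = 5 per group, adjusted p = 1.68e-05) without the 2 libraries and 0.45 ± 0.28 (n = 6, adjusted p = 0.218) with them. It was 0.60 in inserts 1 to 3 and 0.73 in inserts 4 to 6. Ndufa4 has a paralog, Ndufa4l2, that was also in the table, so reads shared between copies cannot be settled here.

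Atp5b (chr10:128083307-128090388, plus strand) was called with and without the 2 libraries. Its values in female air were 15561 to 17780 in inserts 2 to 6 and 23294 in insert 1. In female smoke they were 19090 to 22280, and 32290 in insert 4. The air and smoke ranges do not overlap once those 2 inserts are set aside. The log2 fold change was 0.37 ± 0.12 with all libraries (adjusted p = 0.0178) and 0.34 ± 0.06 without those 2 inserts (adjusted p = 0.000227), with 0.42 in inserts 4 to 6 and 0.26, not called, in inserts 1 to 3.

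Among the other complex IV genes, Cox5a and Cox5b, nuclear subunits of cytochrome c oxidase, rose without overlap. Cox5a (chr9:57521232-57532426, plus strand) stood at 1452 to 1670 in female air inserts 2 to 6 and at 1893 to 2135 in the 5 smoke inserts, a log2 fold change of 0.40 ± 0.05 (adjusted p = 1.89e-05). Cox5b stood at 1034 to 1255 and 1298 to 1647, a change of 0.33 ± 0.06. Cox7a2 rose by 0.28 ± 0.07. The remaining pair, Cox4i1 (-0.07 ± 0.06) and Cox6c (-0.05 ± 0.07), were not called, and with all libraries they stood at -0.31 ± 0.33 and -0.30 ± 0.33.

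In complex III, Uqcrq and Uqcrb, small subunits of the ubiquinol-cytochrome c reductase, rose most. Uqcrq (chr11:53427922-53430831, minus strand) stood at 1473 to 1808 in female air inserts 2 to 6, with insert 1 at 12722. The 5 smoke inserts stood at 2144 to 2366, with insert 4 at 4865. Its log2 fold change was 0.46 ± 0.07 (adjusted p = 7e-05) without the 2 libraries and 0.15 ± 0.35 with them. Uqcrb stood at 665 to 748 in air and 837 to 996 in smoke, a change of 0.38 ± 0.06, and no air value reached a smoke value. Cyc1, the cytochrome c1, which carries the c-type heme of complex III, rose by 0.28 ± 0.07, and with all libraries it stood at 0.28 ± 0.11 (adjusted p = 0.0557). Its rise was 0.50 in inserts 4 to 6, while the value in inserts 1 to 3 was 0.04. Uqcrc1 (0.28 ± 0.08) and the iron-sulfur protein gene Uqcrfs1 (0.19 ± 0.06) rose too, and Uqcrc2 stood at 0.10 ± 0.06.

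The subunits of complex II parted. Sdha (chr13:74322255-74350240, minus strand), the flavoprotein that oxidises succinate, stood at 4284 to 4990 in female air inserts 2 to 6 and 3857 to 4326 in the 5 smoke inserts. These ranges overlap at their edge. Sdha fell, with a log2 fold change of -0.20 ± 0.06 (adjusted p = 0.00628). With all libraries it was -0.17 ± 0.08 (adjusted p = 0.099). Sdhb, the iron-sulfur subunit, rose by 0.28 ± 0.09, with 1170 to 1739 in air and 1594 to 1878 in smoke, again with overlap. Of the membrane anchors, Sdhc rose by 0.16 ± 0.06 and Sdhd stood at 0.14 ± 0.06 (adjusted p = 0.0865).

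In complex I the rises were small. Ndufa5 rose by 0.33 ± 0.09, Ndufa10 by 0.29 ± 0.08, Ndufb7 by 0.24 ± 0.06 and Ndufb9 and Ndufa2 by 0.22 ± 0.08 each. Ndufb7 was the complex I gene whose rise left no overlap, at 633 to 744 in air and 755 to 888 in smoke. With all libraries its fold change had the opposite sign, at -0.11 ± 0.38. Of the core subunits that carry the redox centres, Ndufs1 rose by 0.17 ± 0.06 and Ndufv1, which holds the NADH site, by 0.18 ± 0.07. Ndufs7 (0.05 ± 0.08), Ndufs8 (-0.05 ± 0.08) and Ndufv2 (0.08 ± 0.06) were not called. Ndufa6 fell by 0.22 on the log2 scale (SE 0.07, adjusted p = 0.0191), with 909 to 1205 in air and 825 to 899 in smoke and no overlap. Exons of Ndufs1, Ndufa2 and Uqcrc2 overlap those of Ino80dos, Tmco6 and Pdzd9 on the opposite strand, and since strandedness is not given, reads of such pairs cannot be told apart.

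**Figure D4:**
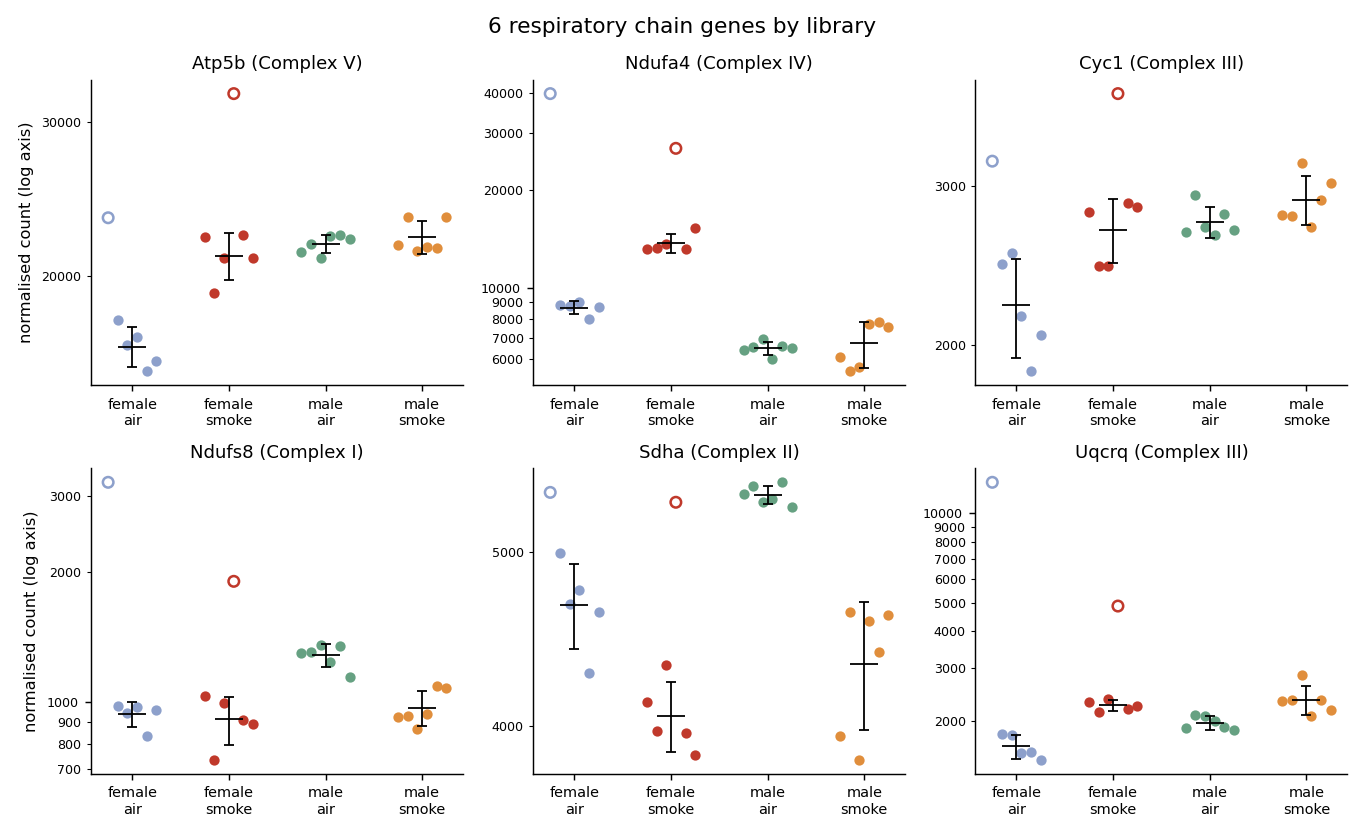
Normalised counts per library (log axis) of 6 genes in the 4 groups, inserts 1 to 6 from left to right. Open circles are female air insert 1 and female smoke insert 4 and bars give the mean and SD of the other libraries; with those 2 inserts set aside, Atp5b, Ndufa4 and Uqcrq are higher in female smoke than in female air without overlap, and Sdha and Ndufs8 are lower in male smoke than in male air without overlap.

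In the same comparison of male cells with all 24 libraries, 1 of 36 genes fell, Sdha, and the median log2 fold change was -0.03 (-0.40 to 0.25), against -0.0058 over all tested genes. Of the 36 values 15 lay above zero, as did 49.5% of all tested genes. None rose in limma, edgeR or DESeq2, nor at an unadjusted p under 0.05 in limma (0 of 36). In the 22-library fit, 8 fell and 1 rose. No male library differs between these fits, so the fold changes are identical and the shared estimate of spread alone moved the calls. Of all tested genes, 9.76% were called higher and 12.2% lower in the first fit, and 22.5% and 24.7% in the second. The share of members that fell, 8 of 36, is near that background, and the share that rose is below it. By complex, 6 of 19 genes of complex I fell, 1 of 4 of complex II and 1 of 6 of complex IV, and 1 of 6 of complex III rose.

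Sdha stood at 5295 to 5463 in male air, with a median of 5368, and at 3833 to 4628 in male smoke, with a median of 4488. All 6 smoke inserts were below all 6 air inserts. Its log2 fold change was -0.31 ± 0.05 in the 22-library fit (SE, n = 6, adjusted p = 7.8e-05) and -0.31 ± 0.08 with all libraries (adjusted p = 0.00723).

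Ndufs8 (chr19:3908863-3912774, minus strand), an iron-sulfur subunit of complex I, had the largest fall. It stood at 1145 to 1353 in male air (median 1305) and 867 to 1091 in male smoke (median 932), without overlap, a log2 fold change of -0.40 ± 0.08 (adjusted p = 0.000304). With all libraries the same change carried an SE of 0.24 and an adjusted p of 0.246. The other complex I genes that fell in the 22-library fit were Ndufs7 (-0.26 ± 0.07), Ndufa6 (-0.24 ± 0.07), Ndufb10 (-0.23 ± 0.08), Ndufv1 (-0.19 ± 0.06) and Ndufs1 (-0.17 ± 0.05). Cox4i1 fell as well, with 5375 to 5658 in air and 4607 to 4933 in smoke, a change of -0.21 ± 0.05. In all, 5 genes fell without overlap between the 6 air and 6 smoke inserts, Ndufa6, Ndufs8, Ndufv1, Sdha and Cox4i1, and 0 rose without overlap. Of all tested genes 14.2% were lower and 11.0% higher without overlap, so the members' share of falls is near the background.

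Uqcrq was the 1 member that rose in male cells, with 1851 to 2084 in air (median 1944) and 2067 to 2839 in smoke (median 2333), a log2 fold change of 0.25 ± 0.07 (adjusted p = 0.00403). Its air and smoke values overlap slightly, and with all libraries the SE was 0.35. Ndufa4 stood near zero, at 0.03 ± 0.08, yet the smoke inserts fell into 2 sets, with 5520 to 6085 in inserts 1 to 3 and 7543 to 7826 in inserts 4 to 6, against 6026 to 6953 in male air. Its log2 fold change was -0.20 in inserts 1 to 3 and 0.27 in inserts 4 to 6, each called within its own set. Atp5b in male cells was 20952 to 22244 in air and 21357 to 23356 in smoke, a difference of 0.02 ± 0.06.

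The interaction, the female response minus the male response, tests whether the sexes differed. With all 24 libraries 0 of 36 were called by limma, edgeR or DESeq2, 2 had an unadjusted p under 0.05 in limma, and the median was 0.11 with 22 of 36 above zero. Without the 2 libraries, 8 genes were called, each with the female response more positive, and 36 of 36 values lay above zero (0.02 to 0.62, median 0.22), against 50.1% of all tested genes. The members share their libraries, so these 36 values are not independent. Of all tested genes, 0.694% were called with a higher and 0.340% with a lower female response with 24 libraries, and 3.71% and 2.49% with 22. The 8 of 36 is above that background.

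The largest interaction was that of Ndufa4, 0.62 ± 0.12 (adjusted p = 0.00439), from the female rise of 0.66 beside the male value of 0.03. It was 0.80 in inserts 1 to 3 and 0.46 in inserts 4 to 6. Ndufv1 followed at 0.38 ± 0.10 and Ndufs1 at 0.33 ± 0.08, both higher in female smoke and lower in male smoke than in the matching air group. Cox5a and Cox5b stood at 0.33 ± 0.07 and 0.33 ± 0.09, Atp5b at 0.32 ± 0.08, Uqcrfs1 at 0.28 ± 0.08 and Sdhc at 0.26 ± 0.07. In inserts 1 to 3 only the interaction of Ndufa4 was called among the members, and in inserts 4 to 6 there were 18. Of all 13549 tested genes, inserts 1 to 3 called 255 interactions higher and 114 lower. Inserts 4 to 6 called 1287 and 1409, so the number of calls differed between these sets over all genes too. Sdha, which fell in both sexes, had an interaction of 0.11 ± 0.08 (adjusted p = 0.412), and Ndufa6, also lower in both, 0.02 ± 0.10.

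**Figure D5:**
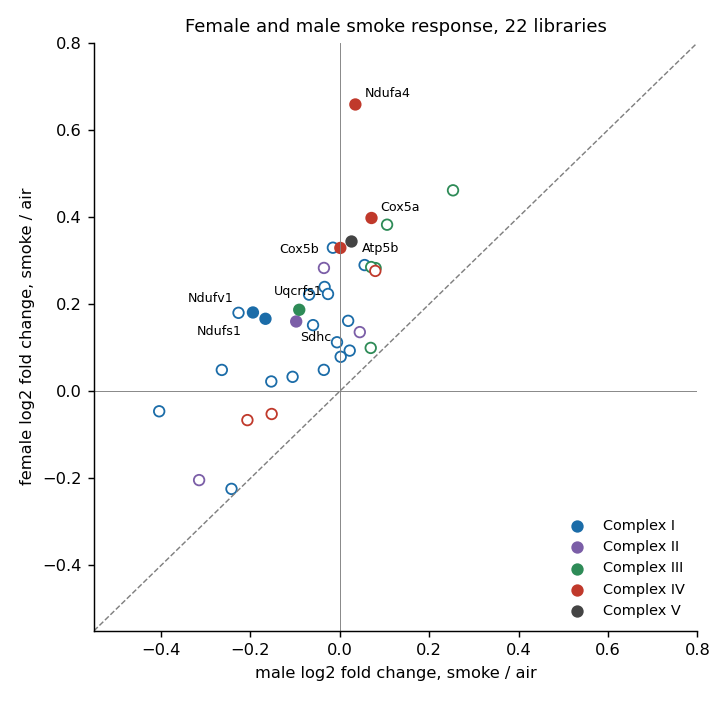
Log2 fold change of smoke over air in male cells (x axis) and female cells (y axis) for the 36 genes, from the fit without female air insert 1 and female smoke insert 4. Filled, named points are the 8 genes with a called interaction and the dashed line marks equal responses; all 36 points lie above the line.

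Female and male cells also differed in air. Without the 2 libraries, 25 members were lower in female air, 1 was higher, and the median female minus male difference was -0.23 on the log2 scale (-0.56 to 0.42). With all 24, 1 was lower (Atp5b), 1 was higher (Ndufa4) and the median was 0.10, so the set's direction turned with female air insert 1. Of all tested genes, 20.0% were higher and 19.0% lower in female air with 24 libraries, and 28.3% and 27.4% with 22. Cox5a differed most, at 1452 to 1670 in female air inserts 2 to 6 against 2058 to 2429 in male air, a difference of -0.56 ± 0.05 (adjusted p = 1.42e-08). Sdhb differed by -0.42 ± 0.08 and Atp5b by -0.39 ± 0.06. Ndufa4 went the other way, at 7989 to 9046 in female air inserts 2 to 6 and 6026 to 6953 in male air, a difference of 0.42 ± 0.08. In the 22-library fit 17 members were lower and 1 higher in female air with no overlap between the groups, against 23.7% and 24.4% of all tested genes. This comparison, the female response and the interaction share the female air libraries, so their values for a gene are linked.

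The authors' deposited tables give a further count. In the female one, 16 of the 36 members carried an adjusted p and none was under 0.05, while 11.9% of all genes with an adjusted p were higher in smoke and 15.4% lower. The median of the 36 member fold changes in that female table was -0.18, against -0.055 over all genes with an adjusted p. The members' fold changes there included 0.37 for Atp5b, 0.29 for Ndufs1 and -0.66 for Ndufa6. In the authors' deposited table for male cells, 36 members carried one, 1 was higher (Uqcrq) and 9 lower, against 21.9% and 20.1% of all genes. Those 9 are the 8 named above and Cox6c, at -0.14 in that table. In the authors' deposited table for female against male cells in air, 16 members carried an adjusted p, 0 were higher in female air and 3 lower (Ndufs1, Sdha and Atp5b), against 20.7% and 15.9% of all genes. The median of the 36 fold changes there was 0.33, and the sources used here do not say which libraries the table rests on. Ndufa2, for example, stood at 0.87 in that table. Its normalised counts were 823 to 1024 in female air inserts 2 to 6, 10944 in insert 1 and 1201 to 1351 in male air.

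Other genes of the pathway, from lists of further subunits and regulators, depended on the 2 libraries too. Of 16 other complex I subunits tested, 3 rose and 0 fell in female cells in the 22-library fit, and 0 rose and 6 fell in male cells. With all 24 libraries limma called 0 of the 16 in either direction in both sexes. Ndufb11 stood at -0.01 ± 0.09 in female cells and fell in male cells, at -0.43 ± 0.09, and with all libraries the male SE was 0.31 (adjusted p = 0.347). Ndufv3 was not called in either sex (-0.03 ± 0.13 and -0.11 ± 0.12). Against the background of 21.9% higher in female cells and 24.7% lower in male cells, the female share is near it and the male share above it.

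Of 4 further complex III genes including cytochrome c, 2 rose in female cells, and 1 rose and 2 fell in male cells, with 22 libraries. With 24, limma called 0 of 4 in both. The 22-library background was 21.9% higher and 23.8% lower in female cells, and 22.5% and 24.7% in male cells. Cytochrome c itself, Cycs, rose in both sexes in the 22-library fit, by 0.56 ± 0.12 and 0.46 ± 0.11, and with all libraries it stood at 0.51 ± 0.25 (adjusted p = 0.12) and 0.46 ± 0.25 (adjusted p = 0.196). Uqcr10, a small complex III subunit, rose by 0.29 ± 0.11 in female cells and fell in male cells, at -0.47 ± 0.10, with an interaction of 0.76 ± 0.14 (adjusted p = 0.00372). With all libraries its female value was -0.05 ± 0.32, its male value -0.47 ± 0.32 and its interaction 0.43 ± 0.45 (adjusted p = 0.782), so none of the 3 was called.

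Of 9 other complex IV subunits, 3 rose in female cells (Cox6b1, Cox7c and Cox8a, by 0.21 to 0.27) and 1 fell in male cells with 22 libraries, and 1 fell in each sex with 24. That gene is Cox6b2, an isoform known from testis, at -1.43 ± 0.50 in female and -1.44 ± 0.50 in male cells with all libraries, and at -1.14 ± 0.48 (adjusted p = 0.0569) in female cells with 22. Ndufa4l2, the paralog of Ndufa4, was not called in either sex or fit, at 1.06 ± 1.39 and 1.74 ± 1.27 with 22 libraries. Of 16 other genes listed for complex V, 6 rose and 1 fell in female cells with 22 libraries. In male cells 0 rose and 6 fell. The background in that fit was 21.9% higher and 23.8% lower in female cells, and 22.5% and 24.7% in male cells. With 24, limma called 1 of the 16 lower in each sex and 0 higher. That gene is Dmac2l, which fell in both sexes in either fit, by 0.49 and 0.48 with 22. Atp5o, in the stalk of the enzyme, rose by 0.28 in female cells. Atp5a1, the alpha subunit, stood at 0.06 ± 0.07 in female cells and fell in male cells, at -0.19 ± 0.06 (adjusted p = 0.0164, and 0.246 with all libraries).

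Among 40 assembly factors, 8 rose and 2 fell in female cells, and 9 rose and 7 fell in male cells, with 22 libraries. With 24 the counts were 4 and 1, and 2 and 0. The female rises, at 8 of 40, and the male rises, at 9 of 40, are near the 22-library backgrounds of 21.9% and 22.5%. Falls were called for 23.8% of all tested genes in female cells and 24.7% in male cells in that fit. Sco1, which delivers copper to complex IV, rose by 0.48 ± 0.10 in female cells (0.47 ± 0.10 with all libraries) and stood at 0.12 ± 0.09 in male cells. Ttc19, a complex III assembly factor, fell in female cells, at -0.28 ± 0.06, and in male cells, at -0.20 ± 0.06, where the adjusted p with all libraries was 0.0693.

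Of 22 genes of the citrate cycle and pyruvate entry, 10 rose and 3 fell in female cells, and 2 rose and 8 fell in male cells, with 22 libraries. With 24 the counts were 5 and 2, and 0 and 2. Of all tested genes, 21.9% rose and 23.8% fell in female cells with 22 libraries, and 22.5% and 24.7% in male cells. With 24 libraries the shares were 15.5% and 19.3%, and 9.76% and 12.2%. Citrate synthase (Cs) rose in both sexes with 22 libraries, by 0.37 and 0.22. Dlst, the succinyltransferase of the 2-oxoglutarate dehydrogenase complex, rose by 0.34 ± 0.05 in female cells and stood at 0.07 ± 0.05 in male cells. Pdk4, a kinase that shuts pyruvate dehydrogenase off, fell in female cells, at -1.43 ± 0.26, and stood at -0.33 ± 0.24 in male cells. Of 14 regulators of mitochondrial biogenesis, 7 rose in female cells with 24 libraries and 7 with 22, and limma called 0 lower in either fit. With 22 they include the coactivator Pprc1 (0.62 ± 0.12), the receptor Esrra (0.32 ± 0.09) and Nrf1 (0.30). In male cells 2 of the 14 rose, Pprc1 (0.56 ± 0.11) and Gabpb1, and the coactivator Ppargc1a fell, at -0.96; with 24 libraries 2 rose and limma called 0 lower.

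Across the 22 libraries, the genes whose log2 levels were most like the mean of the members were Atp5pb, an ATP synthase subunit (Pearson r = 0.90), Atp5g3, Coq6, Coa3 and Rex1bd. Among the members Sdhb was closest (0.94) and Ndufa4 farthest (-0.07), with a median of 0.67. With all 24 libraries the nearest were Cox7b (0.99), Cox6b1, Atp5o, Atp5mpl and Cox7c, and the 2 libraries with a length trend carry these values. Points in these correlations share library depth and group, and no test is attached.

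Cell type markers moved between the same groups. The summed normalised count of 15 multiciliated cell markers ran from 17752 to 42093 in female air and 343 to 19542 in female smoke, where insert 4 held the lowest value and the other 5 began at 3932. It ran from 5541 to 9967 in male air and 587 to 6897 in male smoke. In the 22-library fit 15 of 15 fell in female cells and 8 of 15 in male cells. The sum of 9 club and secretory markers ran from 211112 to 619811, 87109 to 239376, 498386 to 790645 and 134411 to 361547 in air and smoke of female cells, then in air and smoke of male cells. Without female air insert 1 and female smoke insert 4 the female ranges were 211112 to 344794 and 132763 to 239376. That of 8 basal markers, which include Krt5, ran from 166230 to 267956, 245322 to 406447, 172076 to 215889 and 125762 to 258540. Without the same 2 inserts its female ranges were 166230 to 206766 in air and 245322 to 384441 in smoke. Basal genes did not move 1 way. In the 22-library fit 2 of 8 rose in female cells (Krt5 by 0.96 and Krt15 by 1.09) and 2 fell (Dapl1 and Pdpn), and in male cells 3 rose (Krt5, Krt14 and Itga6) and 3 fell (Dapl1, Pdpn and Ngfr). Goblet markers (8) ran from 846 to 3198, 432 to 1628, 298 to 357 and 201 to 496, with female air at most 1309 without its insert 1, and ionocyte markers (7) from 819 to 2047, 487 to 709, 717 to 948 and 358 to 613. Agr2 made up most of the goblet sum in female cells, with medians of 953 in female air and 89.0 in male air. Muc5b went the other way, at 53.2 and 156. Of the 5 goblet genes tested in air with 22 libraries, 1 was higher and 1 lower in female cells. Fibroblast markers (6) summed to 144 to 470 in female air, 83.2 to 342 in male air and at most 88.6 in either smoke group. Only 1 of the 6, Dcn, passed the filter, with medians of 173 in female air and 125 in male air, and 4.14 and 7.12 in smoke. Lum was at 0 in both smoke groups, and its median was 0 in both air groups. Leukocyte markers (7) summed to between 5176 and 131007 over the 24 libraries, mostly Lyz2, while the leukocyte antigen Ptprc reached at most 8.31 and Adgre1 was at 0 in each group but male smoke. Of the 3 leukocyte genes tested in the 22-library fit, Cd68 rose and Lyz2 fell in female cells, by 0.85 and 1.20, and Cd68 and Itgam rose in male cells, by 1.53 and 2.61. Itgam ran from 394 to 3662 in female cells, and in male cells its median was 30.0 in air and 149 in smoke; the medians of Cd68 there were 133 and 368. All values are bulk, so fewer cells of a type and less RNA per cell cannot be told apart, and the part of cell makeup in the respiratory chain results was not tested.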

How the data were processed

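RNA of 24 inserts was sequenced from NEBNext Ultra II libraries, per the labels. The authors deposited normalised counts, a signal that in 24 of 24 columns was a whole multiple of 1 step within 0.001 reads; reads were recovered for 23 libraries (16038813 to 24485024), male smoke insert 5 having a step too near 1. Tools in the submitters' processing notes are DESeq2, HTSeq, Trimmomatic 0.38.0 and FastQC 0.11.9, with GRCm38 and mm10; the aligner and strandedness were not given in the sources used here. As deposited and per the file headers, the authors' comparison tables hold log2 fold changes and adjusted p-values; their sign was turned to smoke over air and female over male. Transcript lengths and positions (a unit classed as other) come from the deposited mm10 refGene annotation, longest transcript per gene.

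Genes with a mean of at least 10 (13549 of 25239) were fitted on log2 (normalised count + 1) with limma 3.58.1 (eBayes with trend, R 4.3.3), 1 term per group over all 4 groups. Fold changes are on that scale with their SE, and calls use Benjamini-Hochberg adjusted p under 0.05 over all tested genes. The limma and edgeR fits were tested on simulated counts with known changes in female smoke alone, read in the female comparison. Those counts held no length trend, and the DESeq2 fit, the interaction and the length correction were not tested this way. Alternatives were TMM, library total and quantile scaling, pseudocounts 0.5 and 5, other filters, robust eBayes, array weights, insert number as a term, each library left out, inserts 1 to 3 or 4 to 6 alone, length-corrected values, and edgeR 4.0.16 and DESeq2 1.42.0 on recovered reads. Length correction subtracted each library's trend of log2 deviation on transcript length, for 13545 genes with a length. Insert numbers were taken not to pair samples. Values are given for every gene of complexes II and V, for the 3 with the lowest p in each of complexes I, III and IV in each smoke comparison (female also without the 2 libraries with a length trend), for the 2 with the lowest p in the interaction and in the sexes in air, and for 2 genes of each other list; other genes named are examples chosen after their values were seen. The members, gene lists and the 22-library fit were chosen with earlier results of these data known. Python 3.11.15 was used for summaries.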

Additional observations from a re-analysis of the deposited data

Results flagged for a closer look

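Female air insert 1 stood apart as the highest of its 6 inserts in each complex, with a mean log2 level of 12.09 for complex I, 11.98 for complex II, 12.33 for complex III, 13.53 for complex IV and 14.51 for complex V. Female smoke insert 4 did so in its group, at 11.07, 11.92, 12.08, 12.48 and 14.98 in the same order. Male air insert 5 stood apart for complex IV, at 11.36. By chance about 1 in 20 groups would show such a gap; 10 of these 11 gaps are the same 2 libraries seen in 5 complexes, so they are not independent. Gene by gene, female air insert 1 stood apart for 31 of 36 members and female smoke insert 4 for 32.

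The female response to smoke differed from the male one for 8 members in the fit without those 2 libraries, by the interaction term of limma. The log2 differences were 0.62 for Ndufa4, 0.33 for Ndufs1, 0.38 for Ndufv1, 0.26 for Sdhc, 0.28 for Uqcrfs1, 0.33 for Cox5a, 0.33 for Cox5b and 0.32 for Atp5b. With all 24 libraries limma called 0 of the 36.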

How the results depend on the processing

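Of 2568 alternative values for 56 single-gene results, 2266 kept their side of the threshold, 104 of them with another sign and uncalled in both fits. A further 246 became called, 47 lost the call and 9 changed sign with a call. Counts of members below are higher and lower, with all libraries as the base (female smoke 2 and 0, male smoke 0 and 1, interaction 0 and 0, female against male in air 1 and 1). In female smoke they were 20 and 2 without female air insert 1 and female smoke insert 4 (the 2 libraries whose levels followed length), 12 and 2 with length-corrected values, 17 and 3 with both, 23 and 1 with array quality weights, 19 and 2 in edgeR without the 2 libraries and 1 and 0 in edgeR with them, 1 and 0 with no filter, 0 and 0 with only the groups compared, 0 and 0 in inserts 1 to 3 and 20 and 0 in inserts 4 to 6. Scaling by the library total or by quantiles called 1 lower. Without female air insert 1 or female smoke insert 4, inserts 1 to 3 gave 3 and 1, and inserts 4 to 6 gave 24 and 1. Of all 13549 tested genes, 3809 were higher and 3900 lower in female smoke with array quality weights. In edgeR these were 3039 and 3170 without the 2 libraries, and 1907 and 2771 with them. They were 1332 and 1525 with only the groups compared, 383 and 273 in inserts 1 to 3, and 2996 and 3247 in inserts 4 to 6. With no filter they were 2001 and 2936 of 20566. In male smoke the same settings gave 1 and 8 members without the 2 libraries, 0 and 6 length-corrected, 1 and 10 with both, 1 and 7 with array weights, 1 and 9 in edgeR without these 2 and with only the groups compared, 2 and 9 and 2 and 4 in these trimmed sets, and 0 lower in inserts 4 to 6. Over all tested genes male smoke gave 2036 and 2096 of 13545 length-corrected, and 3237 and 3263 with both. It gave 3174 and 3503 of 13549 with array weights, and 3442 and 3136 in edgeR without these 2. With only the groups compared it gave 2887 and 3261, and 484 lower in inserts 4 to 6. The trimmed sets gave 2980 and 3100, then 1688 and 1835. Member interactions called were 8 without the 2 libraries in limma and in edgeR, 19 with array weights, 1 length-corrected, 6 with both, and 1 and 18 in these trimmed sets, all higher. Over all tested genes, those called higher were 503 of 13549 in limma and 507 in edgeR without the 2 libraries, and 1270 with array weights. They were 201 of 13545 length-corrected, 499 with both, and 255 and 1287 of 13549 in the trimmed sets. In female against male in air the member counts lower were 25 without the 2 libraries in limma and in edgeR, 12 length-corrected, 23 with both (2 higher), 28 with array weights, 6 and 29 in these trimmed sets, 5 by library total, 3 by quantiles and in inserts 4 to 6, 2 with only the groups compared, and 0 with no filter, in edgeR and in inserts 1 to 3. Those called higher there were 0 in DESeq2, with only the groups compared and in inserts 1 to 3 or 4 to 6. Over all tested genes, 3716 of 13549 were lower in female air in limma and 3709 in edgeR without the 2 libraries. These were 4776 with array weights, 2992 of 13545 length-corrected, 3639 with both, and 1958 and 3997 in the trimmed sets. They were 3387 by library total, 3243 by quantiles, 2651 with only the groups compared and 2288 in edgeR. Inserts 1 to 3 gave 1360, and inserts 4 to 6 gave 2179.

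Leaving out 1 library at a time gave 1 to 19 higher and 0 to 1 lower in female smoke, 1 to 2 lower in male smoke, 0 to 1 interactions, and 0 to 1 higher and 0 to 10 lower in air. The highest of each of these ranges but 2 came without female air insert 1; the female smoke count of 1 lower came without female smoke insert 4. Ndufs1 was then not called in female smoke (0.14). Ndufb7 in female smoke was reversed to 0.24 without the 2 libraries, 0.31 with array weights, 0.69 in inserts 4 to 6 and 0.33 in that set trimmed, 0.15 length-corrected without them and 0.24 in edgeR, with -0.30 to 0.43 over single libraries left out. Ndufa4 in male smoke was reversed to -0.20 in inserts 1 to 3 trimmed. Without female air insert 1, 2925 of all 13549 tested genes were higher in female smoke and 2419 lower in male smoke. In that fit 238 had a higher interaction, and 2930 were lower in female than in male air.

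The insert number as a replicate block gave 1 higher in female smoke and 0 lower in air, where Ndufs1 (0.26) and Atp5b (-0.31) lost the call. With the 2 libraries left out, the block gave 16 and 2 in female smoke, 1 and 7 in male smoke, 4 interactions and 25 lower in air, and Ndufb7 stood at 0.22. Over all 13549 tested genes that fit called 2689 and 3034 in female smoke, and 2993 and 3423 in male smoke. It called 477 interactions higher and 373 lower, and 3619 genes lower in air. Of 36 pairs of libraries with the same insert number, 15 had a correlation of deviations over 0.1, in a range from -0.24 to 0.37. Their median was 0.07, against -0.007 for pairs with different numbers, and whether same-numbered inserts are paired was not tested. The trimmed sets, the length-corrected fit without the 2 libraries and the block without them were chosen after seeing the data. The cause of these changes was not tested. Assigned reads ran from 16038813 to 24485024 in the 23 libraries where they were recovered, and the part of depth was not tested. Leaving out the 2 libraries took the SE of Ndufb7 in female smoke from 0.38 to 0.06.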
